A study of Mus musculus with 66 samples.

Results

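Spinal cord RNA of 4 *Rorb* h4/h4 mice was compared with that of 3 C57BL/6J mice. These were 7 of the 66 libraries of the series, chosen by their labelled tissue and genotype, and all 17427 genes that passed a filter on low counts are described, of 45706 gene identifiers in the files. The h4 allele arose spontaneously at The Jackson Laboratory, is carried by the strain B6.Cg-Rorb hstp-2J/GrsrJ, and introduces a premature stop codon in exon 8 of *Rorb*, which the 2 isoforms share. The study lists B6.129S7-Il1r1 tm1/mx/J, a strain with a targeted *Il1r1* gene, as the one on which h4 arose, while the controls were C57BL/6J mice labelled as wild type. The h4/h4 mice were 2 females and 2 males aged 8.4 to 8.6 weeks, and the controls were 2 females and 1 male aged 8.0 weeks. The deposited names of the 3 control libraries share a prefix that 0 of the 4 h4/h4 libraries have. What the prefix stands for is not stated in the sources used here, and genotype, prefix and age cannot be told apart. All h4/h4 mice are of 1 mutant line. Each library was made from the polyadenylated RNA of a whole extruded cord of 1 animal, so fewer cells of a type and less RNA per cell cannot be told apart.

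*Rorb* encodes RORβ, a nuclear receptor of the ROR family that binds as a monomer to response elements built around the core AGGTCA. In the spinal cord it marks inhibitory interneurons of the dorsal horn that gate sensory input to motor circuits, and mice without it walk with the high-stepping gait seen in these mutants. In the brain *Rorb* is best known as a marker of layer 4 neurons of the cortex, and it is also needed for the development of the retina.

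Total expected counts ran from 40024856 to 59120533 per library (median 44293922). Sex-linked genes matched the labelled sex in all libraries, with 0 against their label. Levels are given as CPM, counts scaled to the library total after TMM normalization, and a gene was called at an adjusted P under 0.05 by edgeR's quasi-likelihood test with Benjamini-Hochberg adjustment over all genes tested. Fold changes are h4/h4 against C57BL/6J on the log2 scale, with the standard error (SE). Each library is 1 mouse, so P values measure the spread between these mice.

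*Rorb* itself had the smallest P of all genes. Exon 8 of *Rorb*, which holds the h4 stop, is shown here from the reference transcript Rorb-201 (GENCODE, GRCm39, chr19:18932406-18932516, reverse strand, 111 bases, coding), 1 of the 2 transcripts that the study names, to place the mutation in the gene.
Rorb exon 8: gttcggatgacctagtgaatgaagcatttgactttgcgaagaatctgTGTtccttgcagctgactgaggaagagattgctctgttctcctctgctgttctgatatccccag
The capitals mark the 1 cysteine codon of the exon, codon 361 of 470, since the study describes a cysteine replaced by a stop through a change of guanine to adenine. A single G-to-A change turns 0 codons of this exon into a stop when made on the transcript strand and 1 codon when made on the opposite strand, the glutamine codon 364. Neither is the cysteine codon, so the described change could not be matched to a base of this sequence. The gene-level estimates do not show which base is changed in these mice. *Rorb* (chr19:18930609-19111196, GRCm38) stood at 40.6, 39.2 and 36.2 CPM in the controls and at 8.33, 7.12, 10.1 and 7.92 CPM in h4/h4 cords. The groups were far apart, and the h4/h4 mean was 21.6% of the control mean. The log2 fold change was -2.21 (SE 0.09, adjusted P = 7.66e-09). An exact two-sided permutation test of the 7 values gave P = 0.0286, the smallest that 4 against 3 libraries can give. Related receptors that share response elements with RORβ were not called: *Rora* was at -0.03 (SE 0.04), *Nr1d1* at -0.12 (SE 0.06) and *Nr1d2* at -0.12 (SE 0.04).

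In all, 305 genes were called, 1.75% of those tested. Of these, 98 were higher in h4/h4 cords (0.562%) and 207 were lower (1.19%). At an unadjusted P under 0.05 there were 2433 genes. The changes were small: the median called gene rose 1.28-fold or fell to 0.836 of the control level, and 12 changed by 2-fold or more. The groups did not overlap for 302 of the called genes, against 2240 of all genes tested (12.9%). Of the called genes, 20 were unnamed gene models. The number called rests on single libraries, since it was 90 without C57BL/6J replicate 1, 161 without h4/h4 replicate 2, 183 without C57BL/6J replicate 3 and 201 without C57BL/6J replicate 2. Of the 305, 74 were called whichever library was left out.

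**Figure D1:**
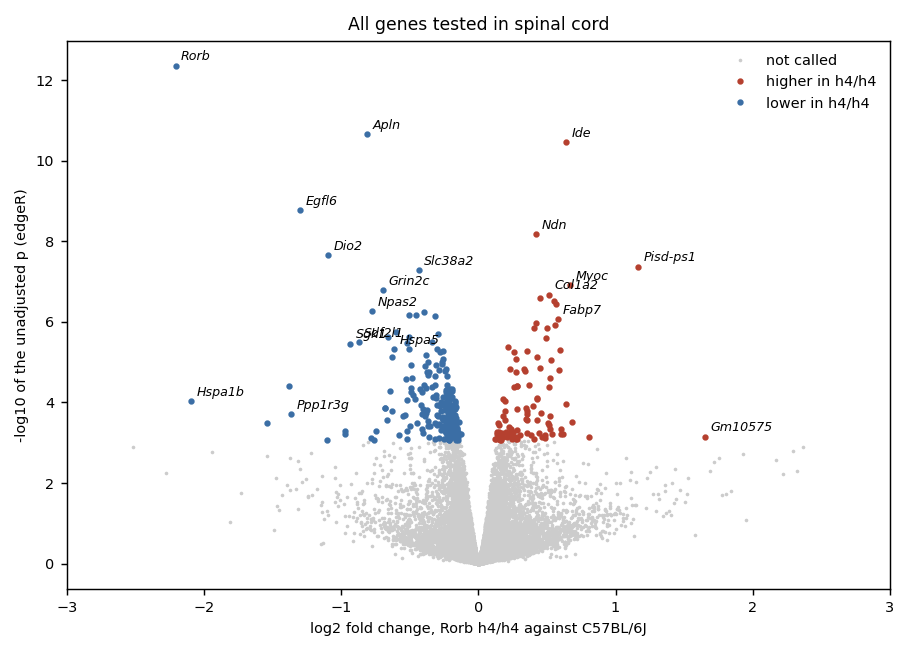
Log2 fold change of h4/h4 against C57BL/6J spinal cord (horizontal axis) and -log10 of the unadjusted edgeR P (vertical axis) for all genes tested, with red points higher and blue points lower in h4/h4. *Rorb* stands alone at the top left at -2.21, most called genes lie within 1 of zero, and 6 genes beyond 3 on the log2 scale, 2 of them called, are outside the plot.

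After *Rorb*, the lower genes with the smallest P were *Apln*, *Egfl6* and *Dio2*. *Apln*, which encodes the peptide ligand apelin, was at 73.1, 72.6 and 75.8 CPM in controls and 43.6, 40.7, 40.1 and 43.9 CPM in h4/h4 cords, a log2 fold change of -0.81 (SE 0.04, adjusted P = 1.95e-07). *Aplnr*, the apelin receptor, moved the other way, from 23.9, 26.6 and 23.8 CPM to 35.8, 33.5, 31.7 and 31.7 CPM (0.42, SE 0.06, adjusted P = 0.00287). The ligand fell and its receptor rose in every h4/h4 library relative to every control. *Egfl6*, a secreted protein with EGF-like repeats, was at 9.87, 9.91 and 9.81 CPM in controls and 4.04, 4.10, 3.34 and 4.51 CPM in h4/h4 cords (-1.30, SE 0.10, adjusted P = 7.35e-06). *Dio2*, the deiodinase that makes active thyroid hormone in astrocytes and tanycytes, was at 29.0, 24.5 and 27.3 CPM against 14.2, 13.0, 9.84 and 13.2 CPM (-1.10, SE 0.10, adjusted P = 6.35e-05). Both fell to under 0.5 of the control level in the fit.

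*Slc38a2*, a transporter of neutral amino acids, fell by 0.44 on the log2 scale (SE 0.04, adjusted P = 0.000115). *Npas2*, a partner of BMAL1 in the circadian clock, went from 12.2, 11.1 and 10.8 CPM to 6.78, 6.12, 6.06 and 7.65 CPM (-0.77, SE 0.09, adjusted P = 0.000574). *Ncan*, a proteoglycan of perineuronal nets, fell by 0.39 (SE 0.05), and *Shisa6*, an AMPA receptor auxiliary subunit, fell by 0.51 (SE 0.06). *Irak2*, a kinase downstream of interleukin 1 and Toll-like receptors, fell by 0.51 (SE 0.07), *Nat8f3* by 0.66 (SE 0.09), and *Gpr26*, an orphan receptor, by 0.30 (SE 0.04). Their adjusted P ran from 0.000574 for *Ncan* to 0.00142 for *Irak2* and *Nat8f3*.

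On the higher side *Ide*, which encodes insulin-degrading enzyme, led with 71.0, 65.3 and 70.7 CPM in controls and 107, 106, 110 and 108 CPM in h4/h4 cords (0.64, SE 0.04, adjusted P = 2.05e-07). *Ndn*, an imprinted gene of the MAGE family, rose from 125, 117 and 125 CPM to 170, 160, 166 and 159 CPM (0.42, SE 0.04, adjusted P = 2.37e-05). It was the only called member of the 8 tested genes of the Prader-Willi imprinted cluster, beside 0.562% higher among all genes, and the median log2 fold change of the cluster was -0.07, with its neighbour *Magel2* at -0.05 (SE 0.09). Levels of *Myoc*, a secreted glycoprotein of astrocytes and of the eye's outflow tissue, were 50.3, 52.1 and 47.8 CPM against 82.95, 86.15, 82.6 and 66.9 CPM (0.67, SE 0.07, adjusted P = 0.00024). The h4/h4 replicate 4 library was the lowest of its group for *Myoc* and still above all controls.

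*Col1a2*, a chain of type I collagen, went from 30.2, 30.9 and 31.9 CPM to 42.6, 48.7, 44.4 and 42.0 CPM (0.52, SE 0.06, adjusted P = 0.000306). *Adamts2*, which trims procollagen, rose by 0.57 (SE 0.06), *Adamtsl4* by 0.55 (SE 0.06) and the matrix glycoprotein *Fbln1* by 0.53 (SE 0.08). Of 25 collagen and matrix genes tested, 2 were called, both higher, *Col1a2* and *Col16a1* (0.24, SE 0.06), beside 0.562% higher among all genes. In the list 14 genes were above 0 and 11 below, at a median of 0.06 against -0.002 for all genes. *Col1a1* was at 0.06 (SE 0.09) and *Col3a1* at -0.03 (SE 0.12), neither called. *Col16a1* kept its call only without h4/h4 replicate 1, and its adjusted P was 0.0548 to 0.215 without any other library. Markers of meninges and fibroblasts were summed to 66.0 to 78.8 TPM in controls and 76.2 to 86.8 TPM in h4/h4 cords, with 1 of 13 tested called (*Col1a2*). Their part in these results was not tested.

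Among the other 15 with the smallest P on the higher side were *Fabp7*, a fatty acid binding protein of astrocytes and radial glia (38.2, 34.6 and 34.5 CPM against 59.4, 48.2, 49.4 and 56.4 CPM, 0.58, SE 0.07), and *Serpina3n*, an acute-phase protease inhibitor of reactive glia (0.42, SE 0.05). *Dao*, the D-amino acid oxidase that clears D-serine, rose by 0.50 (SE 0.06), and *Gm2a*, the GM2 ganglioside activator of the lysosome, by 0.22 (SE 0.03). *Arhgef26* rose by 0.45 (SE 0.05), *Ccdc3* by 0.56 (SE 0.07), *Emp2* by 0.41 (SE 0.05), *Rasal1* by 0.59 (SE 0.08) and *Btaf1* by 0.35 (SE 0.05). The adjusted P of these ran from 0.000346 for *Arhgef26* to 0.00227 for *Btaf1*.

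**Figure D2:**
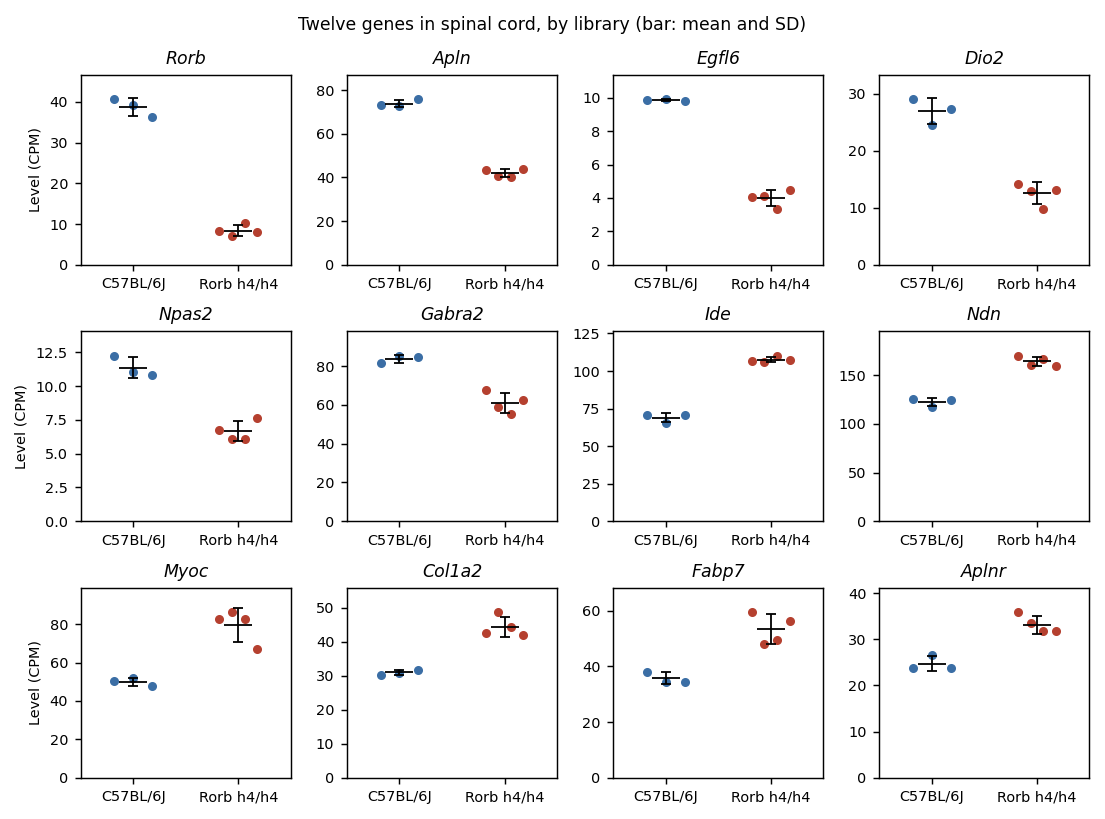
Level in CPM (vertical axis, from 0) of 12 genes in each spinal cord library, blue for 3 C57BL/6J and red for 4 *Rorb* h4/h4 mice, with bars for mean and SD. In each panel the points of the groups are apart, from *Rorb* at 38.7 against 8.37 CPM on average to *Aplnr*, where the lowest h4/h4 library at 31.7 CPM is above the highest control at 26.6 CPM.

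Beside *Rorb*, *Egfl6* and *Dio2*, 9 called genes changed 2-fold or more, and most were low. *Hspa1b*, an inducible heat shock protein, was at 6.60, 5.89 and 25.8 CPM in controls and 2.64, 3.12, 3.03 and 3.22 CPM in h4/h4 cords (-2.09, SE 0.39, adjusted P = 0.0143). C57BL/6J replicate 3, the only male control, was about 4 times as high as the other controls. Without this library the log2 fold change of *Hspa1b* was -1.05, still called (adjusted P = 0.00147). The near-identical copy *Hspa1a* was at -0.59 (SE 0.21, adjusted P = 0.211), and reads can be split between the pair. *Pisd-ps1*, a pseudogene of the phosphatidylserine decarboxylase gene, rose from 16.6, 20.0 and 16.3 CPM to 31.1, 38.6, 45.1 and 43.8 CPM (1.17, SE 0.11), together with *Pisd-ps2* (0.54, SE 0.12) and *Pisd* (0.28, SE 0.05). These 3 also share sequence, so their separate values are uncertain, and without C57BL/6J replicate 1 *Pisd* (0.0528) and *Pisd-ps2* lost their calls. *Pisd-ps2* lost it also without C57BL/6J replicate 3 or any of h4/h4 replicates 2, 3 and 4 (0.0803 to 0.223 over the 5 libraries). *Ppp1r3g*, a subunit that targets protein phosphatase 1 to glycogen, fell by 1.36 (SE 0.28) from 1.47, 1.51 and 1.52 CPM to between 0.317 and 0.758 CPM. *2900052N01Rik* fell by 1.38 (SE 0.24) and *A830036E02Rik* fell by 1.54 (SE 0.33). *Tekt4*, a tektin of cilia, was at -1.10 (SE 0.26), while *Gm10575* rose by 1.65 (SE 0.38). *Tekt4* was called in none of the 7 fits that left out 1 library, *Gm10575* in 1 and *A830036E02Rik* in 2. *Ppp1r3g* lost its call without h4/h4 replicate 2 or any 1 control, at an adjusted P of 0.0645 to 0.106, and *2900052N01Rik* without C57BL/6J replicate 1 (0.0548).

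In 2 genes a whole group was at 0 counts. *Ighg3*, an immunoglobulin constant region, had 23, 20 and 13 counts in controls and 0 in all h4/h4 libraries, at least 26.5-fold lower against a floor of 3 counts over the group. The unnamed identifier ENSMUSG00000107260 had 0 counts in all controls and 104, 253, 106 and 179 counts in h4/h4 cords, at least 151-fold higher against the same floor. In brain the latter was found in controls too, at 9.52 CPM in replicate 2. Its mean in cords of the other mutants was 0.402 CPM in h1/h1, 2.75 CPM in h2/h2 and 0 CPM in h3/h3. *Ighg3* averaged 0 CPM in h1/h1 and in h2/h2 cords and 0.286 CPM in h3/h3 cords. These means are on a scaling of all 5 groups of cords together.

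The question behind these mice is the gait, and *Rorb* acts in inhibitory interneurons of the dorsal horn. Of 20 genes that mark these cells, all tested, 3 were called and all were lower, *Gad1*, *Lhx1* and the mutated gene *Rorb* itself, beside 1.19% lower among all genes. *Gad1*, which makes GABA, went from 194, 184 and 189 CPM to 162, 167, 171 and 160 CPM (-0.19, SE 0.03, adjusted P = 0.00922). *Lhx1*, a homeobox gene of dorsal inhibitory neurons, fell by 0.41 (SE 0.09, adjusted P = 0.0401). Both calls were lost without C57BL/6J replicate 1, where *Gad1* had an adjusted P of 0.106. *Lhx1* lost its call also without C57BL/6J replicate 3 or any of h4/h4 replicates 2, 3 and 4, at an adjusted P of 0.0572 to 0.209. The median of the 20 was -0.11, with 15 below 0. The second GABA-making enzyme *Gad2* was at -0.14 (SE 0.03, adjusted P = 0.0538), the dynorphin gene *Pdyn* at -0.28 (SE 0.08), the GABA and glycine vesicle transporter *Slc32a1* at -0.04 (SE 0.04) and the transcription factor *Pax2* at 0.05 (SE 0.07), none of them called. *Slc6a5*, the glycine transporter, was at 605, 610 and 606 CPM in controls and 586, 581 and 604 CPM in h4/h4 replicates 1 to 3, but at 368 CPM in replicate 4.

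Of 19 excitatory dorsal horn markers edgeR called 0 (2 at an unadjusted P under 0.05, 0 by DESeq2) at a median of -0.04, with the vesicular glutamate transporter *Slc17a6* at -0.04 (SE 0.04). Motor neuron and cholinergic markers had 0 of 12 called by edgeR (2 at an unadjusted P under 0.05, 0 by DESeq2) and a median of 0.08, with *Chat* at 0.12 (SE 0.08). Of 12 pan-neuronal genes 1 was called, *Syt1*, the calcium sensor of synaptic vesicles (-0.20, SE 0.04), and *Rbfox3* was at -0.08 (SE 0.03). Without C57BL/6J replicate 1 the adjusted P of *Syt1* was 0.0794. Among all genes 1.75% were called.

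Receptors for the transmitters of these circuits and the ion channels gave 0 to 3 calls a list, all lower, beside 1.19% lower among all genes. *Gabra2*, a GABA-A receptor subunit, was at 81.5, 85.3 and 84.6 CPM in controls and 67.5, 58.6, 55.2 and 62.6 CPM in h4/h4 cords (-0.46, SE 0.05, adjusted P = 0.00062). It was the 1 called of 18 GABA-A and glycine receptor genes, whose median was -0.06, and *Glra1*, the main adult glycine receptor subunit of the cord, was at -0.02 (SE 0.04). *Grin2c*, an NMDA receptor subunit found in glia and cerebellar granule cells, fell from 14.3, 15.1 and 13.9 CPM to 8.11, 9.29, 9.04 and 9.25 CPM (-0.69, SE 0.07, adjusted P = 0.000263). *Grm5* (-0.17, SE 0.03) and *Gria2* (-0.17, SE 0.04) were the other 2 called of 22 glutamate receptor genes, and both lost their calls without C57BL/6J replicate 1 or 2 or h4/h4 replicate 3. *Gria2* lost it also without C57BL/6J replicate 3, h4/h4 replicate 2 or h4/h4 replicate 4, at adjusted P of 0.0501 to 0.265 over the 6 libraries, and *Grm5* was at 0.0533 to 0.0965 over its 3. Of the voltage-gated channels, *Cacna1e* was called (-0.18, SE 0.04) among 19 sodium and calcium channel genes, and it lost its call without h4/h4 replicate 2 or any 1 control (0.0693 to 0.143). Of 22 potassium channel genes edgeR called 0, with 3 at an unadjusted P under 0.05 and 2 by DESeq2.

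The next list holds chaperones of the endoplasmic reticulum (ER), which fold secreted and membrane proteins and are induced when unfolded protein builds up. Of 32 such genes tested, 11 were lower, 0 were higher and 27 had a fold change below 0, with a median of -0.10 against -0.002 for all genes, where 1.19% were lower. Like the other lists, this one was chosen with earlier results of these data known, so its count is not independent of them. *Hspa5*, the ER chaperone BiP, was at 338, 284 and 416 CPM in controls and 223, 218, 230 and 234 CPM in h4/h4 cords (-0.61, SE 0.09, adjusted P = 0.00218). *Sdf2l1*, a cofactor of BiP, was at 10.2, 9.49 and 14.4 CPM in controls and between 6.08 and 6.49 CPM in h4/h4 cords (-0.87, SE 0.12, adjusted P = 0.00177). *Manf*, a secreted ER stress protein, fell by 0.51 (SE 0.07), *Dnajc3* by 0.32 (SE 0.04), *Calr* by 0.38 (SE 0.06), *Pdia6* by 0.37 (SE 0.06) and *Creld2* by 0.46 (SE 0.09). *Dnajb11*, *Pdia3*, *Hsp90b1* and *Hyou1* fell by 0.31, 0.24, 0.30 and 0.21.

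*Hspa5* thus spanned 284 to 416 CPM over controls and 218 to 234 CPM over h4/h4 libraries. C57BL/6J replicate 3, the only male control, was the highest control for all 11. Its sex and other traits of that library cannot be told apart. Without this library 8 of the list were called lower, and without C57BL/6J replicate 1 there were 7. A term for sex gave 14. The log2 fold change of *Hyou1* was -0.13 without C57BL/6J replicate 3. *Creld2*, *Hsp90b1*, *Pdia3* and *Hyou1* lost their calls without C57BL/6J replicate 1 or 3, at adjusted P of 0.0556 to 0.217 over all libraries whose absence cost a call. *Xbp1*, a transcription factor that drives these genes, was at -0.31 (SE 0.09, adjusted P = 0.109), and *Atf6* at -0.02 (SE 0.04). The PERK and ATF4 branch of the same response had 0 of 16 genes called by edgeR (4 at an unadjusted P under 0.05, 2 by DESeq2) and a median of 0.01.

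**Figure D3:**
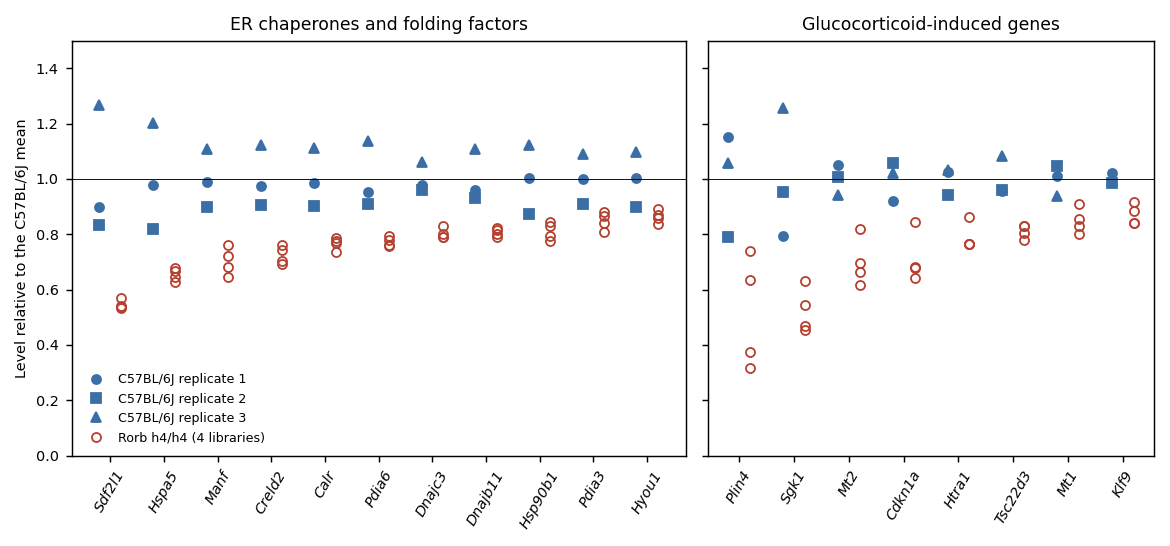
Level of each gene relative to its C57BL/6J mean (vertical axis, from 0) in every spinal cord library, for 11 ER chaperones (left) and 8 glucocorticoid-induced genes (right) that were called lower. The open red points of the 4 h4/h4 libraries lie below every control, and the triangle of C57BL/6J replicate 3 is the highest control for all 11 ER genes.

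The ER stress element, the letters CCAAT, 9 bases and CCACG, is the site through which ATF6 induces ER chaperones. Promoters of 250 bases before to 50 after the start (RefSeq, GRCm38.p6) were searched for it on both strands, because the called ER genes move together. It was found in 0.119% of all 32851 promoters and in 0.137% of the 27025 genes they belong to. Of the 11 called ER genes 9 had a promoter in the table, and 6 of the 9 held the element (66.7%). Of the 21 ER genes tested and not called, 18 had a promoter and 4 held it (22.2%: *Canx*, *Derl3*, *Ero1b* and *Syvn1*). The shares were not tested against each other, and a match is not a binding site. The elements of the 6 genes are shown in the orientation of the motif, with its letters in capitals and the position of the first base on the promoter strand counted from the start site.
Calr, -162: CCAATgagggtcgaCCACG
Creld2, -126: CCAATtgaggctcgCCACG
Dnajc3, -105: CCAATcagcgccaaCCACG
Hsp90b1, -212: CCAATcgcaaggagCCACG
Hsp90b1, -107: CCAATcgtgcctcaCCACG
Hspa5, -65: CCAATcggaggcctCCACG
Pdia6, -98: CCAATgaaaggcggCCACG
The elements differ in the 9 bases between the capitals and lie between 212 and 65 bases before the start. The whole promoters of *Hspa5*, with 1 element, and of *Hsp90b1*, with 2, are given to show where the element sits, with the element in capitals on the gene's strand.
Hspa5 (chr2:34771840-34772139, forward strand): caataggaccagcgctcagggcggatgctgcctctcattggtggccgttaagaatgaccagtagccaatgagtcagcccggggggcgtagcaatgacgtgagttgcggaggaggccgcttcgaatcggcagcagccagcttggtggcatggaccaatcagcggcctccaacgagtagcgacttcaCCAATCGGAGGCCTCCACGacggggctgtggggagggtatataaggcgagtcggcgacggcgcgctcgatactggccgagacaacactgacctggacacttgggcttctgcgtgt
Hsp90b1 (chr10:86705395-86705694, reverse strand): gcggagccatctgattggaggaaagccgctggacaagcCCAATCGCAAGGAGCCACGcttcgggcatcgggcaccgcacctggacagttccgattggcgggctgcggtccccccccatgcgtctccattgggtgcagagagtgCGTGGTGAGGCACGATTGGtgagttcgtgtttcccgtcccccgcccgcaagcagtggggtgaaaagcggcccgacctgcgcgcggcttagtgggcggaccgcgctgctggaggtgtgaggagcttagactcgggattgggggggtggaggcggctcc
The letters TAGGTCA, a site of the kind bound by ROR proteins, was searched in the same way. Counted by gene, it was in 2.97% of all 27025 genes with a promoter, in 2 of 158 genes called lower (1.27%), in 1 of 71 called higher (1.41%, *Fabp7*) and in 2.23% of those tested and not called.

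Of 20 genes induced by glucocorticoids 8 were lower, 0 were higher and 12 were not called, with a median of -0.22, beside 1.19% lower among all genes. Members of this list too were chosen with earlier results of these data known, so the count is not independent of them. *Sgk1*, a kinase induced by steroids, was at 53.0, 63.7 and 83.9 CPM in controls and 30.4, 36.3, 31.3 and 42.1 CPM in h4/h4 cords (-0.93, SE 0.13, adjusted P = 0.00181). The metallothioneins *Mt2* (-0.52, SE 0.07) and *Mt1* (-0.24, SE 0.05), which bind zinc, the cell cycle inhibitor *Cdkn1a* (-0.49, SE 0.09), the anti-inflammatory factor *Tsc22d3* (-0.30, SE 0.04), the secreted protease *Htra1* (-0.34, SE 0.05), *Klf9* (-0.20, SE 0.04) and the lipid droplet protein *Plin4* (-0.97, SE 0.22) were the others. The classical target *Fkbp5* was not called (-0.08, SE 0.08), nor were *Per1* (-0.04, SE 0.11), *Pdk4* (-0.00, SE 0.09) and *Zbtb16* (-0.24, SE 0.11). The receptor gene *Nr3c1* was slightly higher (0.12, SE 0.03, adjusted P = 0.0483), a call lost whichever library was left out (0.0693 to 0.168). Left-out libraries gave 6 to 8 calls in the list, and a fit of all 5 groups gave 5. *Plin4* lost its call without C57BL/6J replicate 1 or 3 or h4/h4 replicate 2 or 3 (0.0514 to 0.225), *Klf9* without C57BL/6J replicate 1 or 3 or h4/h4 replicate 3 (0.0566 to 0.136), and *Mt1* without C57BL/6J replicate 1 or 2 (0.0693 and 0.11).

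The counts of the next lists stand beside 1.19% lower and 0.562% higher among all genes. Heat shock genes had 2 of 17 called by edgeR, both lower, *Hspa1b* and *Chordc1*, an HSP90 cochaperone (-0.37, SE 0.06), and a median of -0.15. In that list 16 genes were below 0, 12 were at an unadjusted P under 0.05 and DESeq2 called 7. Of 18 clock genes, *Npas2* and the output factor *Hlf* (-0.26, SE 0.04) were lower, and *Bmal1* (-0.13, SE 0.09), *Clock* (-0.11, SE 0.04), *Per1* and *Dbp* (0.25, SE 0.14) were not called, at a median of -0.00. Of 9 thyroid hormone genes, *Dio2* and *Klf9* were lower, and the receptors *Thra* (0.04, SE 0.03) and *Thrb* (-0.21, SE 0.05) were not called. Of 22 cholesterol synthesis genes 19 had a fold change above 0 at a median of 0.10, and *Fdft1* (0.14, SE 0.03) and *Sqle* (0.16, SE 0.04) were higher. *Fdft1* was called in none of the 7 fits that left out 1 library, and *Sqle* in 2. Immediate early genes, complement and complex I of the respiratory chain each had 0 called by edgeR and by DESeq2, with 1, 5 and 1 genes at an unadjusted P under 0.05. *Ifit3* (0.44, SE 0.10) was the 1 called of 18 interferon and MHC class I genes, and its call was lost without h4/h4 replicate 2 or 4 or any 1 control (0.0693 to 0.179).

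**Figure D4:**
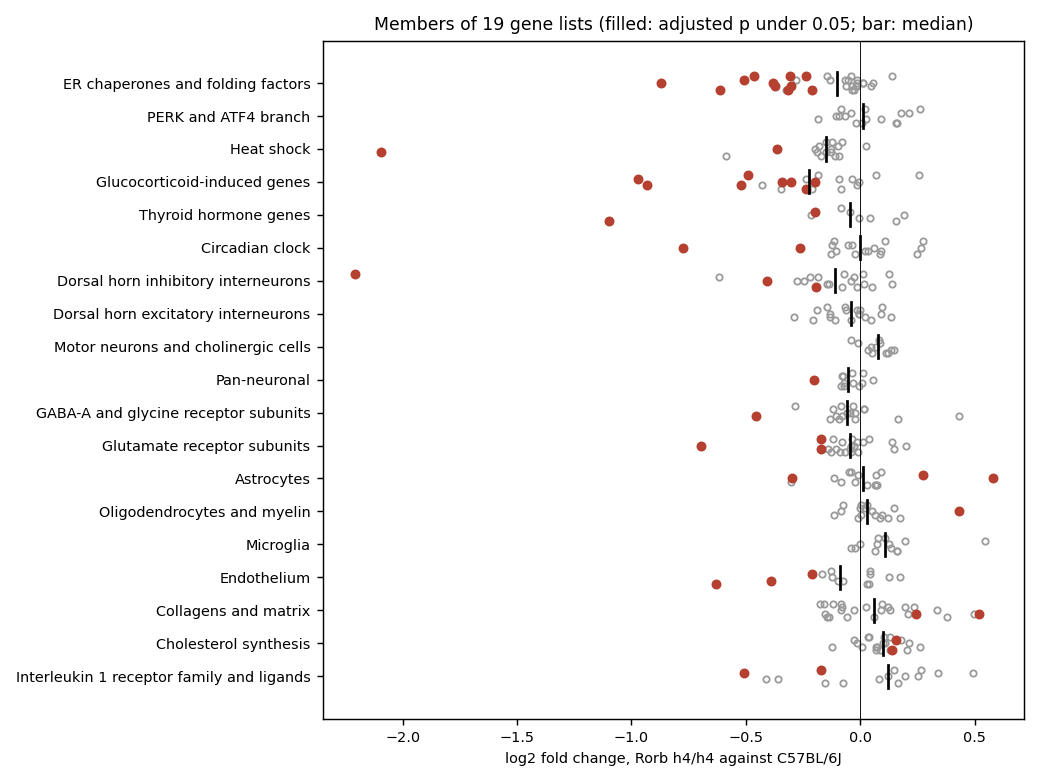
Log2 fold change of h4/h4 against C57BL/6J (horizontal axis) for each tested member of 19 gene lists (rows), with filled points for called genes, open points for the rest and a bar at the median. The ER row has 11 filled points and the glucocorticoid row 8, all left of zero, and the excitatory interneuron, motor neuron, microglia and PERK rows have none.

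Glial and vascular markers were called in both directions, beside 1.19% lower and 0.562% higher among all genes. Of 16 astrocyte genes *Fabp7* and *Slc1a3*, the glutamate transporter GLAST (0.27, SE 0.04), were higher and *Gjb6*, connexin 30 (-0.30, SE 0.06), was lower, while *Gfap* (0.07, SE 0.06), *Aqp4* (-0.09, SE 0.06) and *Slc1a2* (-0.11, SE 0.04) were not called and the median was 0.01. *Glul*, glutamine synthetase, fell by 0.23 (SE 0.05), a call lost without h4/h4 replicate 2 or any 1 control (0.0536 to 0.138). Of 17 oligodendrocyte genes, *Opalin* was higher (0.43, SE 0.09) and *Mbp* was not called (-0.01, SE 0.04). Oligodendrocyte precursors, microglia and mural cells had 0 of 11, 0 of 13 and 0 of 11 called by edgeR, each with 3 at an unadjusted P under 0.05, and DESeq2 called 1, 0 and 2. Of 14 endothelial genes 3 were lower, the lipid transporter *Mfsd2a* (-0.63, SE 0.09), *Ly6c1* (-0.39, SE 0.06) and the glucose transporter *Slc2a1* (-0.21, SE 0.05), whereas *Cldn5* (-0.08, SE 0.11) and *Pecam1* (0.03, SE 0.06) were not called. *Slc2a1* was called in 1 of the 7 fits that left out 1 library (adjusted P otherwise 0.0548 to 0.154). *Gjb6* and *Opalin* lost their calls without C57BL/6J replicate 1 or 3, and without h4/h4 replicate 3 and 2 respectively (0.056 to 0.13).

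Blood genes summed to 1055 to 1428 TPM in controls and 788 to 1441 TPM in h4/h4 cords. Dorsal root ganglion markers summed to 17.7 to 19.9 TPM in controls and 15 to 17.9 TPM in h4/h4 cords, with 0 of 5 tested called and *Mrgprd* and *Mrgprx1* at 0. Schwann cell markers summed to 133.5 to 171 TPM and 121 to 141 TPM, and 0 of 10 were called. Skeletal muscle markers summed to 2.85 to 7.99 TPM and 2.28 to 4.54 TPM. Choroid plexus markers summed to 10.8 to 13.5 TPM and 9.58 to 12.9 TPM, with *Slc4a5* lower (-0.97, SE 0.22) and *Otx2* at 0. Among all genes 1.75% were called. Of 8 blood genes 1 was called, *Hba-a2* (0.61, SE 0.14), and its near-identical copy *Hba-a1* was at -0.40 (SE 0.17). *Hba-a2* kept its call in 2 and *Slc4a5* in 2 of the 7 fits that left out 1 library. The Hox genes that place a sample along the cord had 0 of 10 rostral, 0 of 12 thoracic and 0 of 10 lumbosacral members called, at medians of -0.02, -0.06 and -0.10, and 2, 1 and 2 were at an unadjusted P under 0.05. Thoracic Hox genes summed to 441 to 488 TPM in controls and 433 to 480 TPM in h4/h4 cords, and motor neuron markers to 407 to 456 TPM and 433 to 461 TPM, so both marked all 7 libraries as cord.

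Because h4 arose on a strain with a targeted *Il1r1* gene, that gene and its neighbours were looked at whatever their test. *Il1r1*, the interleukin 1 receptor (chr1:40222480-40316201, GRCm38), was at 5.11, 3.63 and 3.44 CPM in controls and 3.69, 3.27, 3.29 and 5.14 CPM in h4/h4 cords, groups that overlap (-0.08, SE 0.17, adjusted P = 0.904). *Il1r2* (-0.41, SE 0.40), *Il1rl1* (0.25, SE 0.37) and *Il1rl2* (0.34, SE 0.25), which lie beside it, were low and not called. Of 72 genes tested within 5 Mb of *Il1r1* 1 was called, *Npas2*, beside 1.75% of all genes. In the wider family of 15 tested genes *Irak2* and *Il1rap*, the shared accessory chain (-0.17, SE 0.03), were lower, the latter not without C57BL/6J replicate 1 or 2 or h4/h4 replicate 4 (0.0585 to 0.0976), and *Il33*, an alarmin of glia, was at 0.17 (SE 0.04, adjusted P = 0.054). Gene-level counts do not show whether the *Il1r1* transcript is intact.

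Within 5 Mb of *Rorb*, 37 genes were tested and 2 were called, *Rorb* and *Klf9*, beside 1.75% of all genes. Further along chromosome 19, *Ide* was looked at after its values were seen, and because it was called itself. Of 81 genes within 5 Mb of *Ide* 5 were called, all higher, *Ide* among them, beside 0.562% higher among all genes. The others were *Ifit3*, *Btaf1*, *Myof* (0.50, SE 0.11) and *Opalin*. *Myof* lost its call without C57BL/6J replicate 1 or 2 or any of h4/h4 replicates 2, 3 and 4 (0.0699 to 0.117). On the whole of chromosome 19, 8 of 514 tested genes were called (1.56%), near the share over all genes. Chromosome 1 had the highest share, 29 of 961 (3.02%).

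The same mice gave a brain hemisection each, and the comparison of tissues asks whether the cord differs. In brain 125 genes were called (0.703%). Of the 305 called in cord, 53 were called in brain too, 17.4% of the cord calls and 42.4% of the brain calls, and 52 of the 53 had the same direction. Among all cord calls tested in brain, called there or not, 156 of 206 lower genes were below 0 and 81 of 98 higher genes above 0. The mice are the same, so these are not independent samples. *Rorb* was at 52.4, 50.5 and 60.6 CPM in control brains and 12.1, 14.7, 10.4 and 13.4 CPM in h4/h4 brains (-2.10, SE 0.10). *Egfl6* was at -2.20 in brain (SE 0.22), *Apln* at -1.13 (SE 0.11), *Dio2* at -0.98 (SE 0.07), *Myoc* at 0.96 (SE 0.07), *Ndn* at 0.65 (SE 0.08) and *Ide* at 0.52 (SE 0.05). Of the 11 ER genes 10 were also called lower in brain, with fold changes from -0.82 to -0.31 over all 11. *Npas2* (-0.14, SE 0.09), *Ncan* (-0.03, SE 0.06), *Gabra2* (-0.08, SE 0.09), *Gpr26* (0.15, SE 0.10), *Adamts2* (-0.01, SE 0.10) and *Dao* (-0.36, SE 0.21) were not called in brain.

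A fit with the animal as a block tested the difference between tissues itself. It called 2 of 18513 genes (0.0108%), with 1801 at an unadjusted P under 0.05. *Hecw2*, a ubiquitin ligase, was the gene called in both tissues in opposite directions. In cord it was at 85.8, 82.1 and 81.2 CPM against 69.7, 74.7, 73.4 and 70.5 CPM (-0.20, SE 0.04). In brain it was at 0.25 (SE 0.04), and the difference between tissues was -0.45 (SE 0.06, adjusted P = 0.0431). This call was lost in 5 of the 7 fits that left out 1 mouse, those without C57BL/6J replicate 1 or 2 or h4/h4 replicate 2, 3 or 4 (adjusted P of 0.0515 to 0.251). Without C57BL/6J replicate 1 the adjusted P of *Hecw2* in cord was 0.115. The other was the unnamed identifier ENSMUSG00000107260, not called without C57BL/6J replicate 2 (adjusted P = 0.251). So *Npas2*, *Gabra2*, *Ncan* and *Adamts2* were called in cord and not in brain without a called difference between the tissues. The count depended on single mice, with 127 calls without C57BL/6J replicate 3, 30 without h4/h4 replicate 1 and 0 to 3 without any other.

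Cords of h4/h4 mice were also set against the mean of the 11 cords of h1/h1, h2/h2 and h3/h3 mice, high-stepping lines named as *Rorb* mutants, in a contrast of mutants alone, to which the controls lend only their spread. Per the study h1 is a duplication that takes in a first exon of *Rorb*, while the causal changes of h2 and h3 have not been identified. The study implicates *Rorb* in h2 and h3 partly by complementation crosses. In these, h3 with h4 and h1 with h2 complemented weakly or not, while h3 complemented h1 and h2. It also cites the gait, the pattern of *Rorb* levels by qRT-PCR, ER stress changes and, for h2/h2, raised read depth upstream of *Rorb*. The h1/h1 mice, on C57BL/6J, were 2 females and 1 male aged 8.0 weeks. The others arose on B6(Cg)-Tyr c-2J/J, the h2/h2 mice being 3 females and 1 male aged 7.9 to 9.4 weeks and the h3/h3 mice 1 female and 3 males aged 8.0 to 9.6 weeks. Allele and background strain cannot be told apart in these contrasts. Both sexes were in every group. The contrast called 146 genes (0.802%), 78 higher and 68 lower in h4/h4, with 158 under a term for sex and 80 without h4/h4 replicate 3. Taken one by one, 59 genes were called against h1/h1 (0.324%), 66 against h2/h2 (0.363%) and 570 against h3/h3 (3.13%). Of the 305 genes called against controls 77 were called here, all in the same direction, namely 36 of the 98 higher (36.7%) and 41 of the 207 lower (19.8%). The same h4/h4 libraries enter both comparisons. *Rorb* was at -1.87 (SE 0.07). The other groups stood at 31.6 CPM (h1/h1), 23.2 CPM (h2/h2) and 37.9 CPM (h3/h3) on average, against 8.31 CPM in h4/h4, on a scaling of all 5 groups together that serves for the levels across mutants. The h3/h3 cords spanned 34.5 to 42.5 CPM and overlapped the controls at 35.9 to 40.3 CPM.

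In 21 genes h4/h4 differed from controls and from each of the 3 other mutants, in the same direction, with 11 lower and 10 higher. They are part of the 305 called against controls among 17427 genes tested. Over all genes 1.75% were called against controls, 0.324% against h1/h1, 0.363% against h2/h2 and 3.13% against h3/h3. The same h4/h4 libraries enter all of these comparisons. *Egfl6* averaged 9.40, 10.1 and 10.6 CPM in h1/h1, h2/h2 and h3/h3 cords, beside 9.78 CPM in controls and 3.96 CPM in h4/h4 cords (-1.34, SE 0.07). *Grin2c* averaged 13.4, 13.6 and 14.2 CPM in the other mutants and 8.85 CPM in h4/h4 (-0.63, SE 0.06). *Fabp7* was at 30.8, 35.6 and 34.1 CPM in the others and 52.9 CPM in h4/h4 (0.66, SE 0.08). In each of these 3 genes h4/h4 had the lowest or the highest mean of the 5 groups, as the choice of the 21 requires. *Chi3l1*, a secreted chitinase-like protein (-0.52, SE 0.05), *Heph*, a copper-dependent ferroxidase (-0.44, SE 0.07), *Gabra2* (-0.29, SE 0.04), *Shisa6* (-0.48, SE 0.04), *Gpld1* (-0.27, SE 0.03), *Car14* (-0.28, SE 0.04), *2900052N01Rik* and *Apln* (-0.45, SE 0.04) complete the lower genes with *Rorb*. *Dbi*, the acyl-CoA and benzodiazepine receptor binding protein (0.27, SE 0.03), *Slc1a3* (0.24, SE 0.03), *Igfbp4* (0.75, SE 0.06), *Gm2a* (0.23, SE 0.02), *Fbln1* (0.51, SE 0.07), *Tnfrsf19* (0.24, SE 0.03), *Exoc3l4* (0.63, SE 0.08), *Adgrg1* (0.21, SE 0.03) and *Phkg1* (0.20, SE 0.03) are the higher ones with *Fabp7*. *Phkg1* lost its call against controls whichever library was left out (0.0514 to 0.113). Without C57BL/6J replicate 1 the calls of *2900052N01Rik*, *Chi3l1*, *Car14*, *Exoc3l4*, *Adgrg1* and *Igfbp4* against controls were lost too.

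All 11 ER genes lay between -0.13 and -0.01 in this contrast with 0 called, and the 8 glucocorticoid genes lay between -0.57 and 0.03 with 0 called. Against controls 50 of all genes tested were called in h1/h1 cords (0.289%), 365 in h2/h2 (2.09%) and 176 in h3/h3 (1.01%). In these comparisons 0 of the 8 glucocorticoid genes were called in h1/h1 cords, 8 in h2/h2 and 6 in h3/h3, with medians of -0.15, -0.43 and -0.29, beside -0.42 in h4/h4, by whose calls the 8 were chosen. The 3 endothelial genes had 0 called in h1/h1 and 3 in each of h2/h2 and h3/h3, at medians of -0.08, -0.28 and -0.31. Of the 11 ER genes 1, 7 and 10 were called, at medians of -0.27, -0.28 and -0.43. The endothelial and ER genes were likewise chosen by their calls in h4/h4 cords against the same controls. The differences between these counts were not tested. All 3 h1/h1 libraries share the name prefix of the controls, and 0 of the h2/h2 and h3/h3 libraries do, and the part of this in the counts was not tested. *Slc38a2* (-0.07, SE 0.04), *Ndn* (0.08, SE 0.03), *Htra1* (-0.11, SE 0.04), *Mfsd2a* (-0.26, SE 0.09) and *Adamts2* (0.14, SE 0.05) were not called either. All mutants were compared with the same 3 C57BL/6J libraries, and against these *Hspa5* stood at -0.42 in h1/h1, -0.49 in h2/h2, -0.61 in h3/h3 and -0.61 in h4/h4 cords. *Ide* averaged 68.0 and 68.5 CPM in h1/h1 and h2/h2, 106.8 CPM in h4/h4 and 132 CPM in h3/h3 cords. *Btaf1* beside it followed the same order, at 34.5, 36.0, 46.5 and 59.5 CPM.

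**Figure D5:**
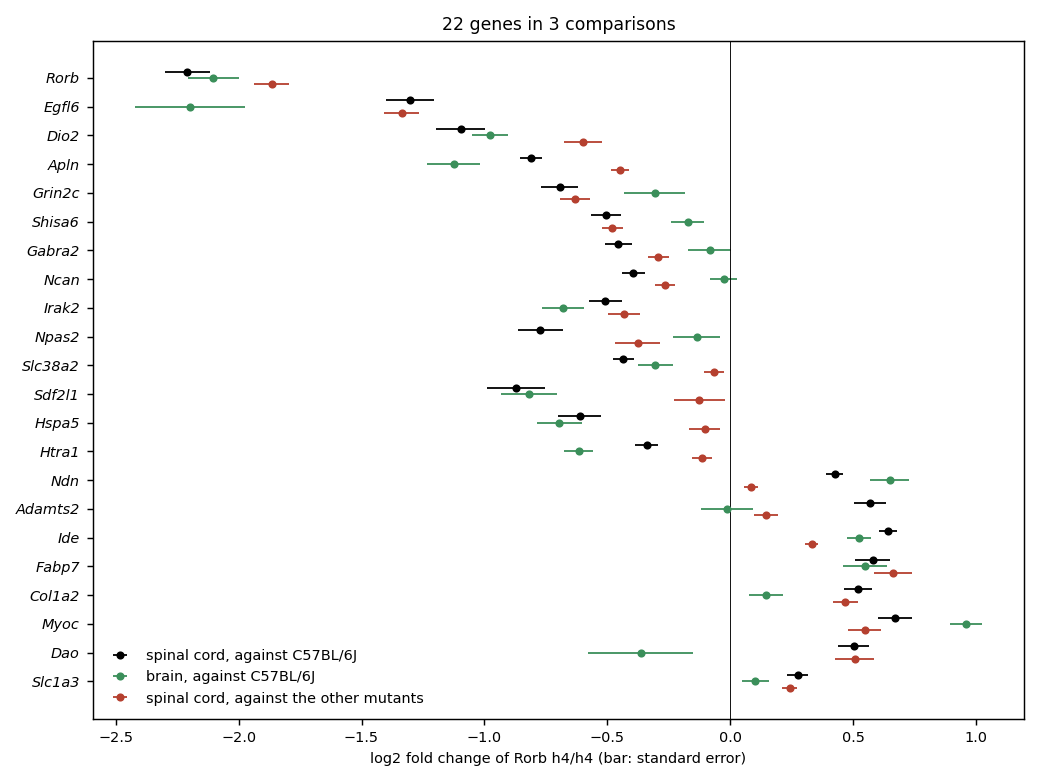
Log2 fold change with SE (horizontal axis) of 22 genes in 3 comparisons, h4/h4 against C57BL/6J in spinal cord (black) and in brain (green), and h4/h4 against the mean of the other mutants in spinal cord (red). For *Egfl6*, *Grin2c* and *Fabp7* the red and black points lie together, while for *Hspa5* and *Sdf2l1* the red points are near zero at -0.10 and -0.13.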

How the data were processed

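Polyadenylated RNA of spinal cords and brain hemisections was sequenced in paired-end libraries. Per the study's methods the authors trimmed reads with Trim Galore, aligned them with STAR to GRCm38 and estimated expression with RSEM. The deposited expected counts are RSEM's estimated fragments for each gene, not normalized, and 5.11% of those used lay more than 0.005 from a whole number. The deposited TPM values, which RSEM scales by length and depth, served for summed levels of marker lists. The annotation version is not given in the sources used here. Symbols came from GENCODE by identifier (41407 of 45706) and positions from RefSeq on GRCm38 (31193).

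Rounded counts were normalized by TMM, filtered with filterByExpr and fitted with the quasi-likelihood model of edgeR (4.0.16, under R 4.3.3). The authors used DESeq2, which served here as an alternative (1.42.0). The fit was tested on simulated data first. Of 33 pairs of replicates 0 were identical. The members and the 39 lists were chosen with earlier results of these data known. Genes named were *Rorb*, the 15 with the smallest P in each direction that are not unnamed models or pseudogenes, those that changed 2-fold or more, called and defining members of the lists, genes that differed from each other mutant, and genes near *Rorb*, *Il1r1* and, added later, *Ide*. Other settings tried were DESeq2, edgeR with the size factors of DESeq2, all genes without a filter, a term for sex, a replicate block, a joint fit of 5 groups, and each library left out.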

Additional observations from a re-analysis of the deposited data

Results flagged for a closer look

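In the h4/h4 group of 4 spinal cords, 137 named genes were searched for a library far from the others by Dixon's criterion, which chance meets in about 1 group in 20. It was met by 9 genes. The highest h4/h4 library stood apart for *Htra1* at 141.8 CPM, *Slc1a3* at 161.9 CPM, *Sdf2l1* at 6.49 CPM, *Il1rl2* at 1.04 CPM and *Nr1d2* at 163.3 CPM. The lowest stood apart for *Gria2* at 263.5 CPM, *Myof* at 4.67 CPM, *Slc6a5* at 367.6 CPM and *Xbp1* at 39.1 CPM. For *Xbp1* and *Nr1d2* the h4/h4 and control libraries overlapped. For the other genes each such value lay on the same side of every control as the rest of its group.

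The genotype effect differed between spinal cord and brain of the same mice in 2 genes by the interaction test. For *Hecw2* the log2 fold change in cord minus that in brain was -0.45, a call lost in 5 of the 7 fits that left out 1 mouse. For the unnamed identifier ENSMUSG00000107260 it was 13.3, with all control cords at 0 and the control brains at 0, 9.52 and 2.10 CPM, so the fitted size depends on the prior count. Its call was lost without C57BL/6J replicate 2 and with no animal block (adjusted P of 0.251 and 0.155).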

How the results depend on the processing

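Against the 305 genes called in cord, DESeq2 called 581, of which 294 were shared, and no low-count filter gave 687, with all 305 among them. DESeq2 size factors in edgeR, sex as a covariate and one fit of 5 groups gave 302, 391 and 356, and leaving out 1 library gave 90 to 355. The share of higher calls was 98 of 305, 222 of 581 and 145 of 356 in the reported fit, DESeq2 and the fit of 5 groups. Same-numbered libraries correlated at 0.109, 0.09 and 0.236, and C57BL/6J replicates 1 and 2 did not correlate best with their own number, so the numbers are not taken to pair the mice, and the replicate block gave 231 calls, 185 of them shared. Called in all 13 alternatives were 70 genes, among them *Rorb*, whose log2 fold change stayed between -2.31 and -2.14 without 1 library. Of 88 named genes 0 changed sign. For the difference between tissues, no animal block gave 1 gene, no low-count filter 334, and leaving out 1 mouse 0 to 127, against 2. Against the other mutants, leaving out 1 h4/h4 library gave 80 (without replicate 3) to 107 genes, against 146, and the replicate block, added after seeing the data, 137. The causes of these shifts were not tested. With 4 against 3 mice, a gene that was not called is not shown to be unchanged.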
